A study of Mus musculus with 2 samples.

Results

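Peaks of the transcription factor MEF2A at GC-rich promoters made up 2466 of the 16839 peaks called on the mm9 mouse genome (14.6%, 95% Wilson interval 14.1 to 15.2%). A peak was a member when its summit lay within 1 kb of the transcription start site (TSS) of a protein-coding GENCODE vM1 transcript and the genome sequence within 500 bp of the nearest such TSS was 55% or more G and C. The choice used position and genome sequence and not the height of the peaks. The other mm9 peaks were 1148 at promoters of lower GC content, 3751 at 1 to 10 kb from a TSS and 9474 distal peaks beyond 10 kb.

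The series was a ChIP-seq experiment with an antibody to MEF2A in CH12.LX, an immortalized mouse B cell lymphoma line from a female animal of a B10.H-2aH-4bp/Wts strain. It held 2 biological replicates, numbered 1 and 2, from separate biosamples that share a donor, and they formed 1 group. No treatment, second factor or second cell type was part of it, so the comparisons below are between classes of peaks, and all values describe a single cell line. P-values count peaks or genes and do not measure the spread between cultures, and neighbouring peaks and genes are not independent of each other.

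MEF2 proteins are MADS-box factors that bind an AT-rich element and switch between recruiting histone acetylases and, through class IIa histone deacetylases, repressing their targets. In B cells they act downstream of calcium and MAP kinase signals from the antigen receptor. GC-rich promoters, many of them CpG islands, belong mostly to housekeeping and developmental genes, seldom carry AT-rich elements, and are often bound by ETS, SP/KLF, NRF1 and CREB family factors.

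The sequences that carried the MEF2 element at the strongest of these promoters are shown first. The MEF2 consensus searched was C or T, then TA, then 4 bases that are each A or T, then TA, then A or G, on both strands and with exact matches. The lines below give 30 bases of NCBIM37 (mm9) sequence around the match for the 8 members with the highest signal among those with a match within 50 bp of the summit, read on the strand of the gene, with the element in capitals.
Hdac5, internal start (chr11:102080287-102080316, minus strand): catgctccacCTATTTATAGacagggccct
Mef2a (chr7:74517727-74517756, minus strand): ggcctgactcCTAAAAATAGccccggtgtg
Hdac5, upstream start (chr11:102091487-102091516, minus strand): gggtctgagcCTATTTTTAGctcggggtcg
Ankrd40 (chr11:94189187-94189216, plus strand): ggtgggagctCTAAAAATAGcccatgaatc
Jun (chr4:94718927-94718956, minus strand): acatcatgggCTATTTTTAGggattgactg
Per1 (chr11:68913629-68913658, plus strand): gcccggaagcCTAAATATAGgaggcgatca
Ywhah (chr5:33361345-33361374, plus strand): ctcgccgcggCTATTTATAGtaggtgacgt
Klf6 (chr13:5860469-5860498, plus strand): atataccctgCTAAAAATAGcctgtgagac

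In all 8 the element had the symmetric form that starts with CTA and ends with TAG. Its centre lay 2.5 to 15.5 bp from the summit that the authors' caller gave. Other factors' motifs at members are shown next, in windows of 101 bases centred on the summit where no annotated exon lay in the window. The strongest member of all, at Rapgef6, held an ETS motif at the very end of its window, away from the summit. The 2 strongest members with an NRF1 motif were at Mcoln1 and Hexim1. Dusp8 held a CRE on either side of an NF-Y motif. Capitals mark the motif named in each line, with overlapping matches on both strands joined.
Rapgef6, ETS (chr11:54336102-54336202, plus strand): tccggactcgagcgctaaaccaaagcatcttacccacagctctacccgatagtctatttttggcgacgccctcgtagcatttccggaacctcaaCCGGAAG
Mcoln1, NRF1 (chr8:3500319-3500419, plus strand): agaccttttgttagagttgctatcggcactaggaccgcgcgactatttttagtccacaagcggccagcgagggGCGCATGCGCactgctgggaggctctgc
Hexim1, NRF1 (chr11:102977459-102977559, plus strand): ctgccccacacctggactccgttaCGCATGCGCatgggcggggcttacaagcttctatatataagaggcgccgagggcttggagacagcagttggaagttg
Dusp8, CRE (chr7:149281204-149281304, minus strand): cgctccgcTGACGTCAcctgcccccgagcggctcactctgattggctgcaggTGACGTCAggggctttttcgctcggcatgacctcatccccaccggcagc
Dusp8, NF-Y (chr7:149281204-149281304, minus strand): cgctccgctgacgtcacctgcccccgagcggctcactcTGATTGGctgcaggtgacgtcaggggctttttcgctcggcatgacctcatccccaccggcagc
Klf6, NF-Y (chr13:5860436-5860536, plus strand): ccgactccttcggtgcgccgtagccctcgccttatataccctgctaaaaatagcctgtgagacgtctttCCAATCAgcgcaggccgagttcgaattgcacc

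The members were spread over 20 chromosomes and 2377 distinct TSSs, and 85 of these TSSs had 2 or more members. Their nearest TSSs belonged to 2291 genes. GC content around these TSSs ran from 55.05% to 79.4% with a median of 61.0%. The ratio of observed to expected CpG had a median of 0.796 at the members and 0.543 at low-GC promoter peaks. Just inside the GC threshold lay the peaks at 1700041G16Rik (55.05% GC, signal 109.95) and Tmem39a (55.05%, signal 97.7), and just outside it those at Naca (54.95%, signal 133) and Abi3 (54.95%, signal 88.7). Just inside the distance limit lay the peaks at Arpc5l (997 bp, signal 75.8) and Ormdl3 (996 bp, signal 61.5), and just outside it those at Cnot6l (1001 bp, signal 42.5) and Phf15 (1003 bp, signal 41.0).

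MEF2A peaks were more frequent at genes with GC-rich promoters than at genes without. Of 8252 genes whose TSSs all lay in GC-rich sequence, 1784 had a summit within 1 kb of a TSS (21.6%, interval 20.7 to 22.5%), against 891 of 10155 genes whose TSSs all lay in sequence of lower GC content (8.77%, 8.24 to 9.34%). By Fisher's exact test over genes, two-sided, the difference of 12.8 points had p = 8.14e-134. Genes with TSSs of both kinds had a peak in 1000 of 3818 cases (26.2%), at a high-GC TSS in 867 and at a low-GC TSS in 412. The share did not keep climbing with GC content: it was 1.32% of TSSs at 30 to 40% GC, 8.06% at 45 to 50%, 16.5% at 50 to 55%, 23.0% at 55 to 60%, 23.2% at 60 to 65%, 21.8% at 65 to 70% and 17.3% at 70% or more. The interval of the last bin (15.8 to 18.9%) lay below that of the bin of 55 to 60% (22.2 to 23.9%). A summit counted for every TSS within 1 kb of it, so TSSs are not independent and these intervals may be too narrow.

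**Figure D1:**
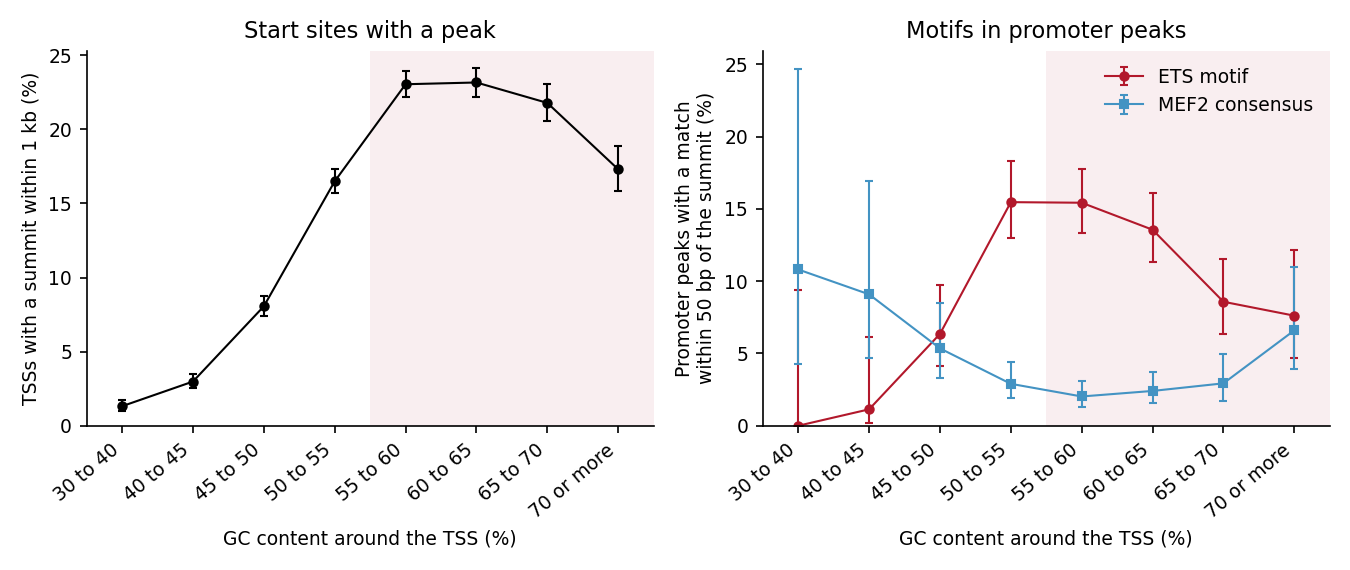
Left, share of distinct protein-coding TSSs with a MEF2A summit within 1 kb, by GC content around the TSS. Right, share of promoter peaks with an ETS or MEF2 match within 50 bp of the summit in the same bins. Bars are 95% Wilson intervals over TSSs or peaks, and the shaded bins are those at or above 55% GC. Neighbouring TSSs can share a peak. The left curve is highest at 55 to 65% GC (23.0 and 23.2%), ETS matches are highest from 50 to 60% GC, and MEF2 matches are lowest at 55 to 60% GC (2.03%).

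Most summits sat just upstream of the start site. Positions are given in bp from the nearest TSS, negative upstream. The median position of member summits was -44 bp (quartiles -145 and 13.75 bp), against -24 bp for low-GC promoter peaks, and 1367 of 2466 (55.4%) were within 100 bp of the TSS. Summits lay downstream of the TSS in 742 members (30.1%, interval 28.3 to 31.9%) and in 443 of 1148 low-GC promoter peaks (38.6%, 35.8 to 41.4%), so the intervals of the 2 shares did not overlap. By annotation, 1322 member summits (53.6%) lay outside every protein-coding transcript, 666 (27.0%) in a UTR exon, 400 (16.2%) in an intron and 78 (3.16%) in a coding exon. Introns held 26.8% of low-GC promoter summits and 43.5% of distal summits. Among TSSs in GC-rich sequence, 1030 of the 5169 with a peak (19.9%) had an opposite-strand TSS within 1 kb upstream, against 2128 of the 18051 without a peak (11.8%). A start site can be counted for both genes of such a pair, and a summit for every TSS within 1 kb of it.

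**Figure D2:**
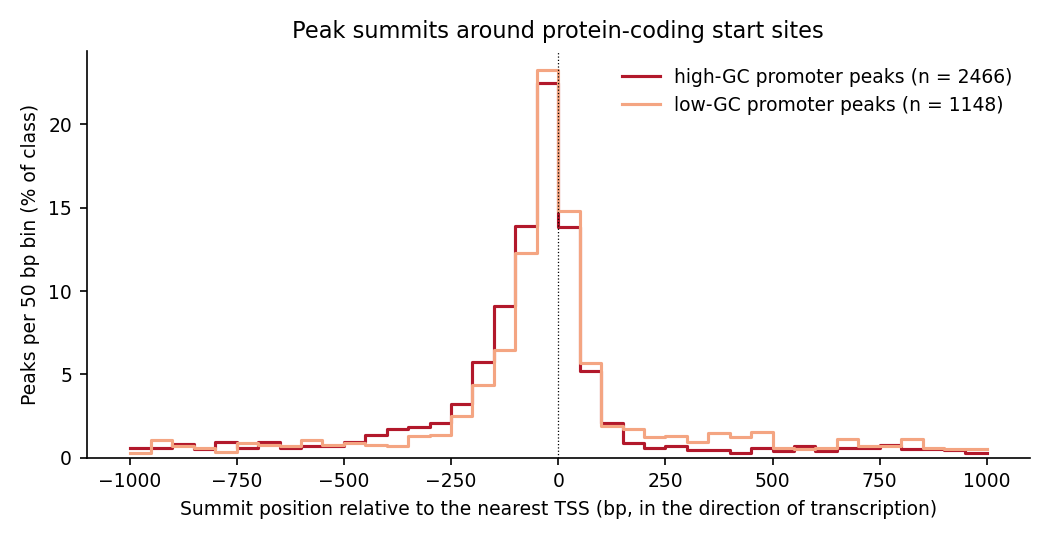
Position of peak summits relative to the nearest protein-coding TSS, in bins of 50 bp, as the percentage of high-GC promoter peaks (n = 2466) and low-GC promoter peaks (n = 1148). Negative values are upstream of the TSS. Both classes have their highest bin at 50 to 0 bp upstream (22.5% of high-GC and 23.3% of low-GC promoter peaks), and the high-GC class has larger shares from 50 to 250 bp upstream.

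The members were weaker than the rest of the list. The signal is the authors' own value for each peak and was used to rank peaks within a list. It ran from 39.2 to 1106 in the members with a median of 53.5, against medians of 57.3 at low-GC promoter peaks and 66.2 at distal peaks. Expressed as a percentile of all mm9 peaks, the median was 37.4 for members, 43.9 for low-GC promoter peaks and 54.96 for distal peaks. The strongest 10% of the list held 68 members (2.76% of them), against 63 low-GC promoter peaks (5.49%) and 1182 distal peaks (12.5%). Of the 100 strongest peaks, 8 were members, 1 was a low-GC promoter peak and 69 were distal. Other peaks were often nearby: 1839 of 2466 (74.6%) had 1 or more other peaks at 1 to 50 kb from their TSS. In 1343 of these 1839 (73.0%) such a peak was the stronger one. At low-GC promoter peaks the shares were 73.5% and 71.3%, with overlapping intervals. No share over all peaks was worked out. Whether stronger neighbours were more frequent than the low ranks of the members alone would give was not tested.

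The replicates could be compared on mm10, where each has a list of its own. Gene symbols carried the GC class over, because genome sequence of that build was not used here. Of the genes with a GC-rich TSS, 78.3% were matched to a RefSeq promoter, and chromosome 18 was not used on mm10, so the mm10 shares count matched genes only and cannot be set against the mm9 share. Peaks within 1 kb of a promoter whose gene has only GC-rich TSSs made up 10.5% of the strongest intervals of replicate 1 and 9.16% of those of replicate 2, when as many intervals were taken as the optimal set of reproducible peaks holds (31497). In the optimal set itself they made up 3133 of 30587 peaks (10.2%, interval 9.91 to 10.6%). Their median percentile was 47.7 in replicate 1, 44.0 in replicate 2 and 39.4 in the optimal set, against 52.0, 52.2 and 53.2 for distal peaks in the same lists. For peaks at low-GC promoters it was 49.4, 48.5 and 46.6. The median of the high-GC class was thus below that of distal peaks in each list, by less in the single replicates than in the optimal set.

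Members with a matched gene mostly had a peak on mm10 too. The mm9 list and the optimal set were made from the same replicates, so this is no independent check. Of 1871 member genes with a RefSeq promoter, 1716 (91.7%) had an optimal peak within 1 kb of it, against 2468 of 7581 other genes with a GC-rich TSS (32.6%). Of the 3133 optimal peaks at these promoters, 75.3% overlapped one of the 31497 strongest intervals of replicate 1 and 76.8% one of replicate 2, and 59.5% overlapped one in both. For distal optimal peaks these shares were 75.7%, 84.9% and 66.2%, and for those at low-GC promoters 76.9%, 82.7% and 64.8%. Correlations of signal used a wider match than these overlaps. In the high-GC class 3031 peaks had a value in both replicates, while 1864 had the overlap in both. Across the 3031 peaks, log2 signal had a Pearson correlation of 0.476 and a Spearman correlation of 0.411. Across 15853 distal peaks they were 0.736 and 0.648, and across 1281 peaks at low-GC promoters 0.557 and 0.489. These are correlations across peaks, which are not replicates. The classes also differed in their range of signal. On mm9 the quartiles of the signal percentile were 18.4 and 57.6 in members and 28.3 and 79.3 in distal peaks. The classes were not matched for signal, so the correlations do not rank them by reproducibility.

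The 20 strongest members had ranks from 12 to 528 among all mm9 peaks and signals from 319 to 1106. They lay nearest to 18 genes, since Hdac5 and Tcfeb each had 2. The MEF2 consensus was within 50 bp of the summit in 11 of the 20, and in 18 of the 20 the summit was upstream of the TSS. In 18 of the 20 the matched gene had an optimal peak that ranked within the first 1000 in both replicates. The exceptions were the 2 peaks at Tcfeb, the older symbol of a regulator of lysosome genes, whose matched RefSeq promoter held a weaker peak (rank 5707 in replicate 1 and 7406 in replicate 2).

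Rapgef6, an exchange factor for Rap GTPases, had the strongest member (chromosome 11, 54335953 to 54336327, summit at -197 bp and outside the gene, signal 1106, rank 12). On mm10 its promoter peak had a signal of 182 in replicate 1 and 232 in replicate 2 and ranked 14 in each. It held no exact MEF2 consensus. The closest form had 1 mismatch. Such a form, ctatttttgg, lay nearer the centre of the window shown above than the ETS motif did.

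Class IIa histone deacetylase Hdac5, a corepressor that MEF2 proteins recruit, had members at separate start sites that ranked 2 and 4 among the 2466 by signal. The peak at the internal start (chromosome 11, 102080116 to 102080481, in an intron of the longer transcripts) had a signal of 1027 and its summit at -46 bp. The peak at the upstream start (102091343 to 102091674) had a signal of 759 and its summit at -18 bp, outside the gene. Both had the element shown above. The strongest Hdac5 promoter peak on mm10, which cannot be assigned to either start here, ranked 77 in replicate 1 and 135 in replicate 2. Mef2a itself, which encodes the factor that was immunoprecipitated, ranked 3 (chromosome 7, 74517579 to 74517913, signal 799), with the summit at -7 bp in a promoter of 73.0% GC. Its mm10 peak ranked 17 in replicate 1 and 63 in replicate 2.

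Jun, an AP-1 subunit and immediate early gene, had a member of signal 685 at -24 bp, and on mm10 135 in replicate 1 and 169 in replicate 2. Klf6, a zinc finger factor of the same rapid response, had one of 475 at -249 bp (95.5 in replicate 1 and 169.8 in replicate 2 on mm10). Per1, a circadian repressor, had one of 503 at -20 bp that held both an ETS motif and the MEF2 consensus (117 and 171 on mm10). Ywhah, which encodes a phosphoserine-binding adaptor protein, had one of 497 at -114 bp with the element next to a CRE (113 and 155 on mm10). The mm10 signals of all 20 were higher in replicate 2 than in replicate 1, with the same mm10 peak counted for both members at Hdac5 and at Tcfeb. The same comparison over all peaks is not given here, so this cannot be read as a trait of these members. The MAP kinase phosphatases Dusp8 (signal 429) and Dusp16 (351) were both in the group, and of these Dusp16 had the consensus and Dusp8 did not. Hivep1 (620), Zfp296 (556), Psmc3ip (362) and Snx30 (354) had none of the 27 motifs searched within 50 bp of the summit. The others were Ankrd40 (702), Tcfeb (657 and 399), Fam100b (470), Klf7 (340) and Ppfia4 (319).

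A match of the MEF2 consensus was found in few members, but it sat at the summit and in the stronger ones. Within 50 bp of the summit, 66 of 2466 members had a match (2.68%, interval 2.11 to 3.39%), against 49 of 1148 low-GC promoter peaks (4.27%) and 796 of 9474 distal peaks (8.40%). The share in members was 0.319 times that in distal peaks (two-sided Fisher's exact test over peaks, p = 4.59e-27). Members were also weaker than distal peaks. Within the stronger 50% of mm9 peaks the shares were 5.95% in members and 10.6% in distal peaks, a ratio of 0.562. Base composition moved with this difference, since the median GC content of the windows was 64.4% in members, 55.4% in low-GC promoter peaks and 46.5% in distal peaks, so class and base composition cannot be told apart there. Each member was therefore also compared with its own flank, a window of the same size 200 bp to the left with a median GC content of 61.4%. The flank had a match in 15 members (0.608%), so the summit share was 4.40 times the flank share (exact McNemar test, two-sided, p = 8.63e-09), and the right flank in 0.568%. In windows of this length centred on the 23220 TSSs in GC-rich sequence, 0.198% had a match. The symmetric form that starts with CTA and ends with TAG was in 41 members at the summit and in 2 in the left flank.

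The excess at the summit was called for exact matches. With 1 mismatch allowed, 179 members had a form of the element at the summit (7.26%) and 155 in the left flank (6.29%; exact McNemar test, two-sided, p = 0.193). In distal peaks 28.4% had such a form at the summit. Of the 20 strongest members, 11 had an exact match, 4 came within 1 mismatch and 5 differed by more.

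The 66 carriers had a median signal percentile of 77.9, against 36.7 for the members without a match. They made up 26 of the 100 strongest members, and 22 of them were in the strongest 10% of all mm9 peaks. With the members cut into 5 equal groups by signal, from strongest to weakest, 43 of 493 (8.72%), 11 of 493 (2.23%), 4 of 493 (0.811%), 3 of 493 (0.609%) and 5 of 494 (1.01%) had a match. The last 3 groups thus stood near the 0.608% of the flank. The element's centre was within 20 bp of the summit in 44 carriers and a median of 14.5 bp away, and it lay upstream of the TSS in 47. With its reverse complement, CTAAAAATAG was the commonest of 19 forms (20 members), followed by CTATAAATAG (7) and CTAAATATAG (6).

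The element resembles a TATA box, which recruits the general transcription machinery at a fixed distance upstream of the start. The element of 13 carriers contained TATAAA on either strand, 5 of them on the strand of the gene. The element's centre lay 20 to 40 bp upstream of the TSS in 4 carriers, and in none of these did it contain TATAAA on the strand of the gene. Of the 66 carriers, 42 had no match of any other factor's motif in the window and 3 also had an ETS motif. By GC content of the promoter the share was 2.03% in promoter peaks at 55 to 60% GC (21 of 1037), 2.41% at 60 to 65%, 2.93% at 65 to 70% and 6.60% at 70% or more (13 of 197, interval 3.90 to 10.96%). The peaks at Mef2a, Ywhah and Nr4a2, an orphan nuclear receptor of the immediate early class, were among these 13.

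**Figure D3:**
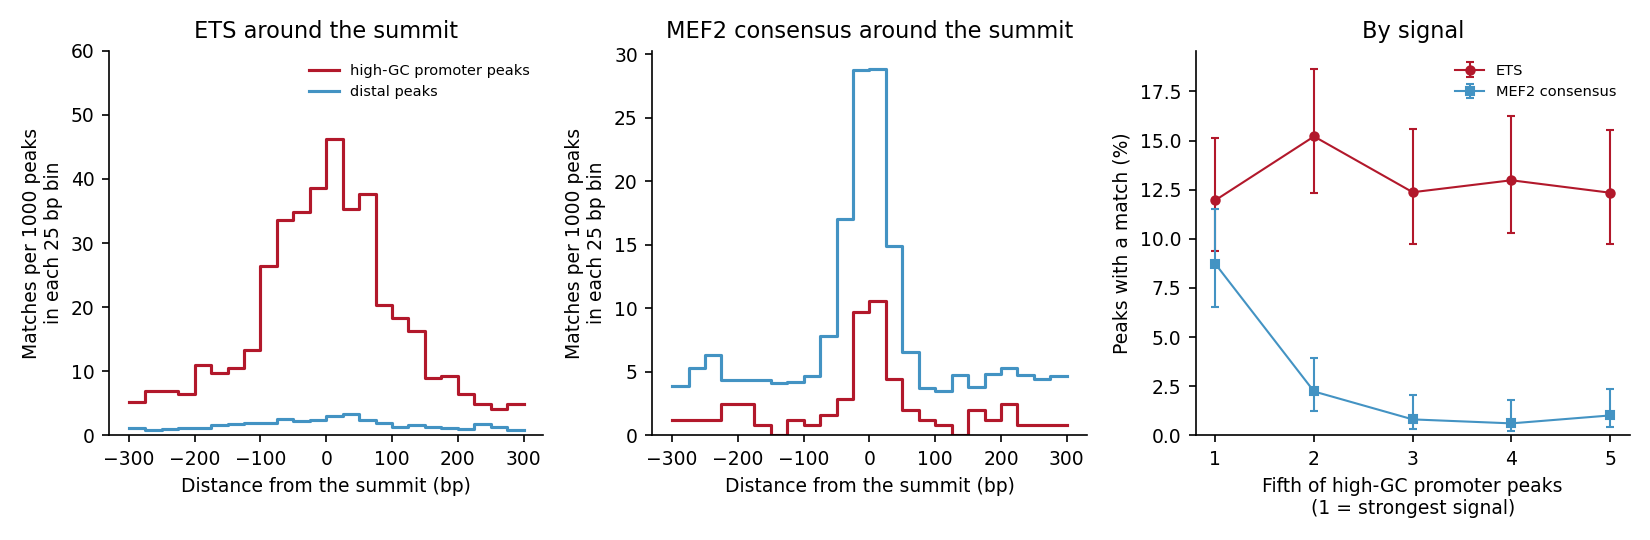
Left and middle, matches of the ETS motif and of the MEF2 consensus per 1000 peaks in bins of 25 bp around the summit, for high-GC promoter peaks (n = 2466) and distal peaks (n = 9474). Right, share of high-GC promoter peaks with a match within 50 bp of the summit in 5 equal groups by signal (1 is the strongest), with 95% Wilson intervals over peaks. In high-GC promoter peaks both motifs are densest next to the summit, MEF2 matches are at 1.01% or less in the last 3 groups, and ETS matches are between 12.0% and 15.2% in all 5.

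The motif found in the largest number of members was that of ETS factors, a large family of which several are expressed in B cells. CCGGAAG, searched on both strands like all motifs here, was within 50 bp of the summit in 320 members (13.0%, interval 11.7 to 14.4%), in 132 low-GC promoter peaks (11.5%) and in 99 distal peaks (1.04%). The left flank of the members had it in 70 cases (2.84%; exact McNemar test, adjusted p = 7.64e-41 over 27 motifs). Of the high-GC TSS windows, 12.9% of those with a peak had it and 6.18% of those without, and neighbouring TSSs can share a peak. The 320 carriers lay at 320 nearest genes and their median signal percentile was 37.8, against 37.4 for the other members. Only 2 of them, at Rapgef6 and Per1, were in the strongest 10% of mm9 peaks. ETS matches shared bases with a match of the NF-kB motif in 7 members and of the SP/KLF motif in 1. Among the other motifs, matches overlapped in 14 members for the MEF2 consensus and the TATA box TATAAA, in 5 for the E-box and AP-1, and in 1 member at most for any further pair of different families, except for the TATA box with the MEF2 core (22) and with the symmetric MEF2 form (7).

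Across all 27 motifs, 18 differed between the summits and the left flanks of the members after Benjamini-Hochberg adjustment (66.7% of those tested, exact McNemar tests), 17 of them more frequent at the summit. Member summits mostly lay near the TSS, so this test does not separate the summit from the TSS. Of the 17, SP/KLF, NF-Y and YY1 had lower shares at summits than in windows centred on GC-rich TSSs. These were 5.39% against 10.2%, 2.72% against 3.07% and 1.34% against 1.83%. Those windows include TSSs without a peak. Against windows at the 5169 GC-rich TSSs with a peak, NRF1 was also lower at summits (1.66% against 1.76%). ETS was nearly level there (13.0% against 12.9%), and the rest of the 17 kept their direction. After ETS, the lowest adjusted p-values belonged to the CRE (TGACGTCA, bound by CREB and ATF factors), in 76 summits (3.08%) and 9 flanks (0.365%; exact McNemar test, adjusted p = 3.25e-13), and the E-box CACGTG of USF, MYC and TFE factors, in 152 summits (6.16%) and 51 flanks (2.07%; exact McNemar test, adjusted p = 1.49e-12). NRF1, a regulator of nuclear genes for mitochondrial proteins, had its motif GCGCATGCG in 41 summits (1.66%) and 10 flanks (0.406%). The CTCF motif was in 31 summits and 5 flanks, the PU.1 motif GAGGAAGT in 33 and 8, and the octamer ATGCAAAT in 20 and 5. NF-kB motifs were in 158 summits (6.41%) and 90 flanks (3.65%), NF-Y motifs (CCAATCA or CCAATGA) in 67 and 37, and the ZNF143 motif ACTACAA in 43 and 19. The SP/KLF motif GGGGCGGGG was in 133 summits (5.39%) and 87 flanks (3.53%), a ratio of 1.53, and in 10.2% of windows centred on GC-rich TSSs. The 1 motif that was less frequent at the summit was AGATAA of GATA factors, in 23 summits and 55 flanks (exact McNemar test, adjusted p = 0.00063). The TATA box, RUNX (TGTGGTT), E2F (TTT, C or G, then GCGC), EGR (GCGTGGGCG), ZBTB33 (CTCGCGAG), forkhead (TGTTTAC), EBF1, NF1 and SRF motifs gave adjusted p-values above 0.05. In windows of the same length centred on the 23220 TSSs in GC-rich sequence, with or without a peak, the share with a match was 7.68% for ETS, 4.06% for NF-kB, 3.90% for the E-box, 3.07% for NF-Y, 1.83% for YY1, 1.74% for the TATA box, 1.43% for NRF1 and 1.35% for the CRE, and below 1% for the other motifs not named with their share.

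Against the distal peaks 25 of the 27 motifs differed (92.6%, two-sided Fisher's exact tests with Benjamini-Hochberg adjustment), 11 higher and 14 lower in the members. With nearly all motifs called and base composition so unlike, the call by itself says little about a single motif. AP-1 (TGACTCA or TGAGTCA) was in 2.35% of members and 13.5% of distal peaks, RUNX in 1.46% and 7.24%, the composite of ETS and IRF sites in 0.568% and 3.45%, and the octamer in 0.811% and 3.69%. In the other direction, NRF1 was in 1.66% of members and 0.0528% of distal peaks, YY1 (AAGATGGCG) in 1.34% and 0.095%, and the CRE in 3.08% and 0.654%. The CTCF motif was in 1.26% of members and 1.18% of distal peaks (Fisher's exact test, adjusted p = 0.784), and NF1 was the other motif not called.

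Against the low-GC promoter peaks 13 of the 27 motifs differed (48.1%, two-sided Fisher's exact tests with Benjamini-Hochberg adjustment), 4 higher and 9 lower in the members. SP/KLF (5.39% against 1.48%), the E-box (6.16% against 3.22%), NRF1 (1.66% against 0.697%) and ZBTB33 (14 of 2466 members against 0 of 1148) were higher. Among the lower ones, PU.1 was in 1.34% of members against 3.31%, RUNX in 1.46% against 3.57%, the ETS and IRF composite in 0.568% against 2.09%, the octamer in 0.811% against 2.09% and AP-1 in 2.35% against 4.18%. The others were GATA, the TATA box and 2 of the MEF2 forms. ETS (adjusted p = 0.341) and the CRE (adjusted p = 0.0676) were not called by the same Fisher's exact tests, but under the 5 alternative settings the CRE was called in 3 and ETS in 2. Of the motifs called, SP/KLF was called under all 5 alternatives and AP-1, RUNX, PU.1, the octamer and the TATA box under 4, while the MEF2 consensus and the E-box were called under 2, and NRF1 and ZBTB33 under 1.

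**Figure D4:**
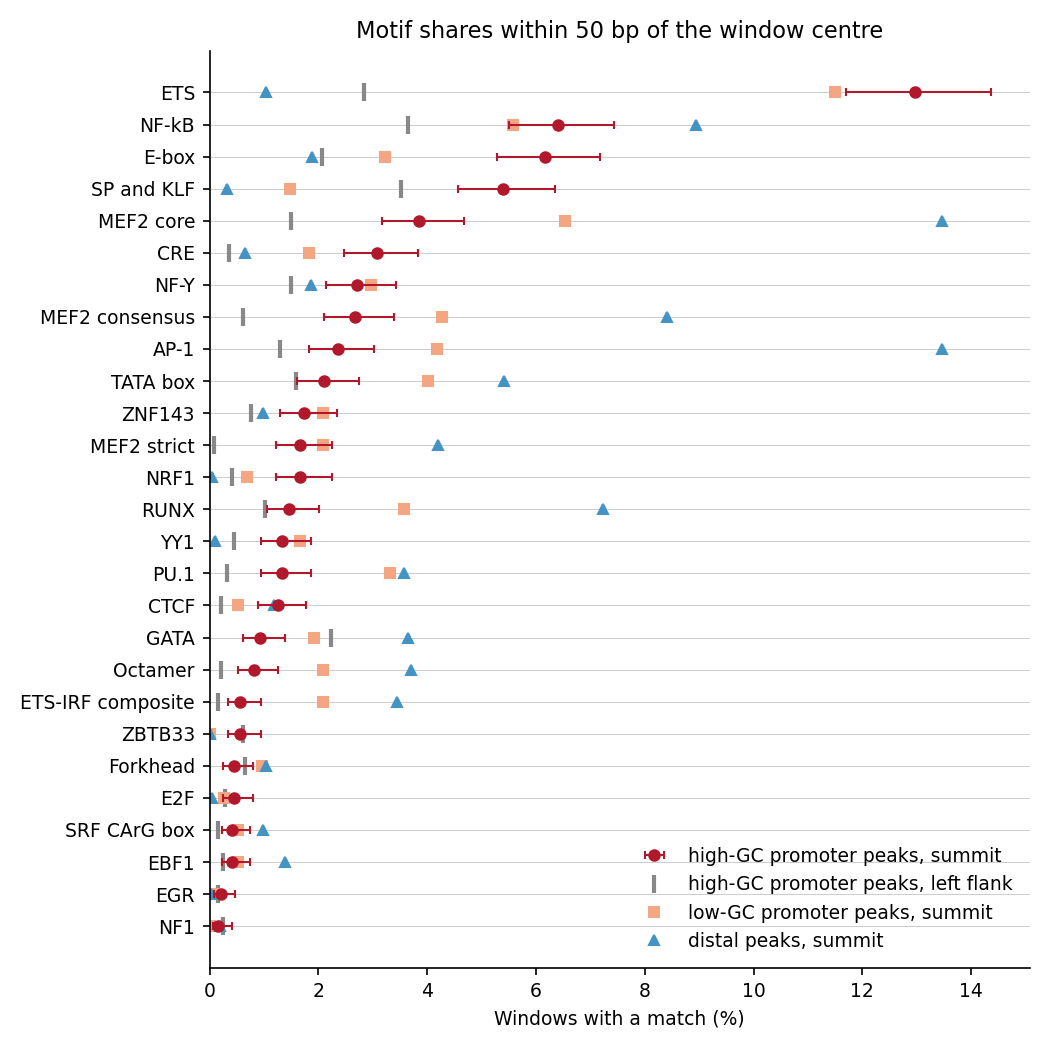
Share of windows with an exact match of each of the 27 motifs. Filled circles are the summits of high-GC promoter peaks with 95% Wilson intervals over peaks, vertical marks the left flanks of the same peaks, squares low-GC promoter peaks and triangles distal peaks. ETS has the highest share in the members (13.0%), and AP-1 and the MEF2 core, the consensus without its outer bases, have the highest in distal peaks (both 13.5%).

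Members with some of the motifs were among the weaker ones. The 41 NRF1 carriers had a median signal percentile of 28.6 and the 33 YY1 carriers 26.1. The strongest member with NRF1, at Mcoln1, which encodes a lysosomal cation channel, had a signal of 104 and also held the MEF2 consensus, and so did the next one at Hexim1 (85.3), an inhibitor of the elongation factor P-TEFb. The 10 carriers of the SRF element, the AT-rich box of another MADS-box factor, had a median percentile of 14.5, and the strongest of them were at Stk40 (102) and Wdr90 (57.2). None of the 27 motifs was at the summit in 1323 of 2466 members (53.6%), against 4226 of 9474 distal peaks (44.6%). Only exact consensus matches were counted.

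Of 12070 genes with at least 1 GC-rich TSS, 2651 had a summit within 1 kb of it, 22.0%, and the listed groups of genes are read against this share. In these counts a gene is credited with a peak at any of its GC-rich TSSs, also where the TSS of a neighbouring gene was closer, as at Rpl18, Atp5j, Snrpd3, Orc1 and Cdk5. The 24 lists were chosen with earlier results of these data known, and no test was made over them.

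Genes for the B cell antigen receptor and its signalling had a peak at 11 of 14 (78.6%, interval 52.4 to 92.4%). The strongest were Plcg2 (signal 75.1, 848 bp downstream of the TSS), the phospholipase of the receptor pathway, the phosphatase gene Ptpn6 (67.0, 716 bp downstream) and the exchange factor gene Vav1 (65.5, 887 bp downstream). These peaks were weak: the median percentile over the 11 was 22.3, and none had the MEF2 consensus. On mm10 the Plcg2 promoter peak ranked 3001 in replicate 1 and 15374 in replicate 2. The kinase gene Lyn and the calcium-responsive factors Nfatc2 and Nfatc3 had a GC-rich TSS and no peak at it. NF-kB subunits and targets had a peak at 11 of 16 (68.8%), with a median percentile of 64.3. The feedback inhibitor gene Tnfaip3 was the strongest (182, at -46 bp, rank 1478 in replicate 1 and 1726 in replicate 2), followed by the subunit gene Rel (139) and Nfkbid (111). B cell transcription factors had a peak at 5 of 17 (29.4%), led by Spib (111) and the octamer-binding factors Pou2f2 (69.6) and Pou2f1 (58.8).

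Genes that respond within minutes to a signal, the immediate early genes, had a peak at 12 of 30 (interval 24.6 to 57.7%), and 4 of these 12 held the MEF2 consensus, the most of any list. Jun and Klf6 were followed by Nr4a2 (220.1, at -178 bp, rank 2023 in replicate 1 and 560 in replicate 2). MAP kinase phosphatases and related DUSP genes had a peak at 7 of 20 (35.0%) with a median percentile of 86.5, and Dusp22 (172) came after Dusp8 and Dusp16. Of the MEF2 family and class IIa deacetylases, 4 had a GC-rich TSS: Hdac5 and Mef2a had a peak at it, both with the consensus, and Mef2d and Hdac7 did not. The BCL2 family and caspases had a peak at 6 of 18, with the survival genes Bcl2l1 (108) and Mcl1 (62.4, summit at the TSS) and the death-promoting Bbc3 (95.4) as the strongest.

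The 6 housekeeping lists had a peak at 123 of 282 genes (43.6%, interval 38.0 to 49.5%). Cytosolic ribosomal protein genes had one at 33 of 63 (52.4%), with Rps3a (200.1), Rpl27 (121) and Rpl18 (108) the strongest. Mitochondrial ribosomal protein genes had one at 19 of 43 (44.2%), led by Mrpl12 (129), Mrps23 (121) and Mrpl34 (103). Translation initiation factors followed at 21 of 49 (42.9%; Eif4a2 at 182, Eif2b4 at 113 and Eif4e2 at 107), proteasome subunits at 10 of 24 (41.7%; Psmd3 at 109, Psmd2 at 86.6, Psmb3 at 85.1), oxidative phosphorylation subunits at 22 of 54 (40.7%; Atp5g1 at 92.5, Atp5j at 83.5, Ndufv1 at 76.8) and splicing factors at 18 of 49 (36.7%; Srsf11 at 92.4, Snrpd3 at 91.7, Hnrnph1 at 83.2). Of these 6 lists only the initiation factors had a peak with the MEF2 consensus, at 1 gene. ETS motifs were in 7 of 33 peaks at cytosolic ribosomal protein genes, 6 of 19 at mitochondrial ones and 4 of 10 at proteasome genes. They were in 4 of 22 at oxidative phosphorylation genes, 3 of 21 at initiation factor genes and 3 of 18 at splicing factor genes. Of all members, 13.0% had an ETS motif. The list counts are small, were not tested and count genes, while the 13.0% counts member peaks.

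DNA replication genes had a peak at 13 of 25 (52.0%; Pold3 at 110.4, Pold4 at 87.6, Orc1 at 63.7). Shares nearest the background were those of heat shock proteins (15 of 58, 25.9%; Dnajc7, Dnajc11 and Dnajc14 led), cyclins and their kinases (7 of 31, 22.6%; Cdk12, Cdk5 and Cdkn1a) and histone lysine methylases and demethylases (7 of 32, 21.9%; Mll3, Mll1 and Kdm5b). The background of 22.0% also lay within the intervals of several other lists. These were the DUSP genes (18.1 to 56.7%), B cell transcription factors (13.3 to 53.1%), and the BCL2 family and caspases (16.3 to 56.3%). The MEF2 family and class IIa deacetylases (15.0 to 85.0%) and the SOX, WNT, PAX and protocadherin lists were the others.

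Few genes with GC-rich promoters had a peak in the lists grouped as developmental or neuronal. The developmental lists had one at 6 of 69 genes (8.70%, interval 4.05 to 17.7%). Among these, HOX genes had 1 of 28 (Hoxa7, 41.6) and SOX genes 2 of 16 (Sox6 at 75.3 and Sox15 at 42.3). WNT ligands had 3 of 17 (Wnt10b, Wnt10a and Wnt11) and PAX genes 0 of 8, for which the interval reaches 32.4%. Of the developmental lists only HOX had an interval below the background of 22.0% (0.633 to 17.7%). The low pooled share therefore cannot be extended to each list, and its interval treats genes as independent. The lists grouped as neuronal had a peak at 3 of 101 genes (2.97%, 1.02 to 8.37%). These were potassium channels at 2 of 63 (Kcnn4 at 54.9 and Kcnk10 at 53.8), glutamate and GABA receptors at 1 of 30 (Grm6, 41.8) and protocadherins at 0 of 8. The lists follow gene families, and potassium channels were 63 of the 101 genes. Whether these genes are specific to neurons was not tested. The Kcnk10 peak ranked 10435 on mm9, while the peak at its matched mm10 promoter ranked 1031 in replicate 1 and 620 in replicate 2.

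**Figure D5:**
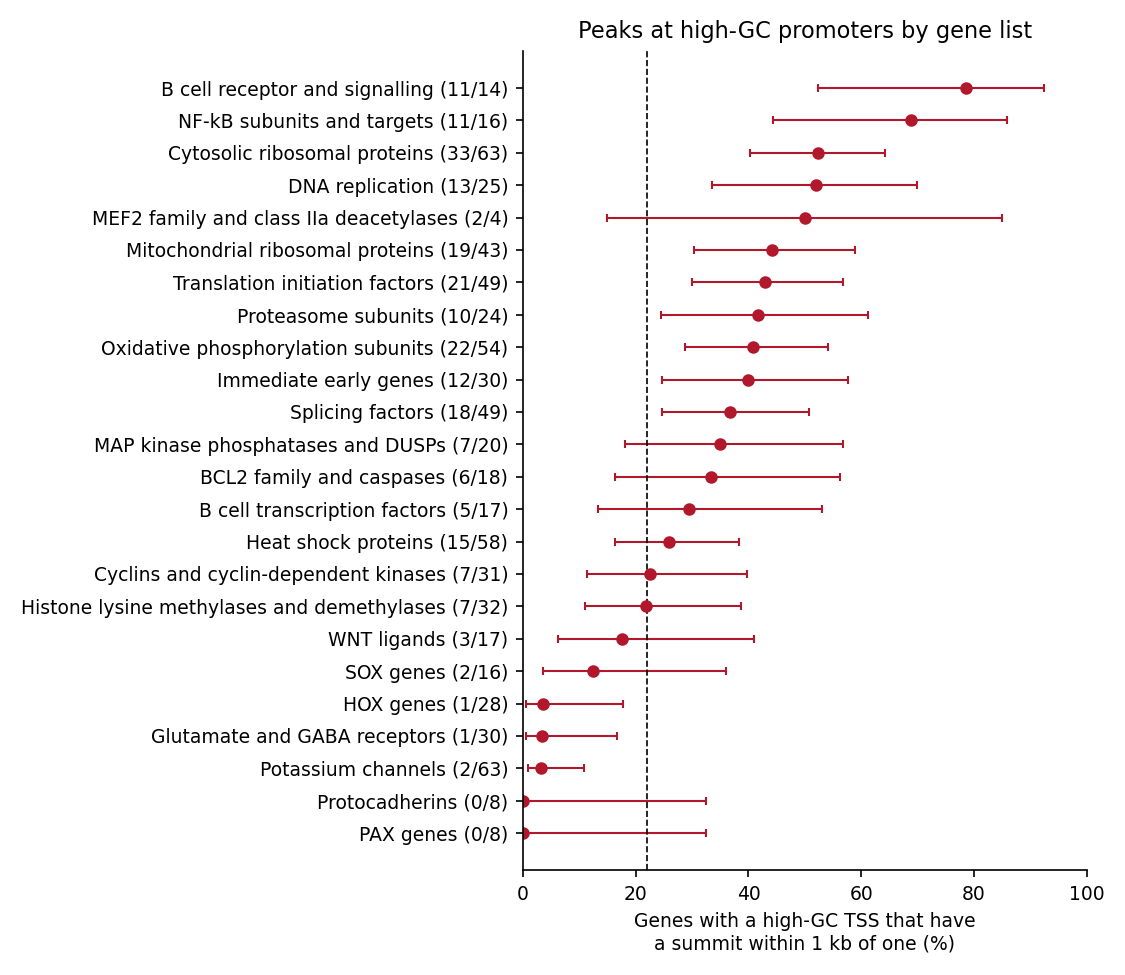
Share of the genes with a GC-rich TSS in each of 24 lists that had a summit within 1 kb of such a TSS, with 95% Wilson intervals over genes and counts beside the list names. The dashed line is the share over all 12070 genes with a GC-rich TSS (22.0%). B cell receptor, NF-kB and housekeeping lists lie to its right, and HOX genes, potassium channels and glutamate and GABA receptors to its left.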

How the data were processed

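MEF2A ChIP-seq peaks from 2 replicates of CH12.LX cells were analysed as deposited. The signal column of each list is the authors' value per peak, per the texts deposited with the files. Peaks were called by the authors per sample (a relaxed list of 300000 intervals each, a limit of the list), and on both replicates (the mm9 list, and the optimal and conservative mm10 sets). Neither the peak caller nor the aligner is given in the sources used here, and the control library and pooled relaxed list were not analysed. The files are peak lists, so read depth is unknown, and the Wilson intervals reflect only counting error in numbers of peaks and genes.

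Calculations ran in Python 3.11.15 using scipy 1.17.1 for tests, pandas 2.3.3 and numpy 2.4.6 for tables, and matplotlib 3.10.9 for figures. Every mm9 peak end lay within the NCBIM37 chromosome lengths. Coordinates are 1-based. A summit is the interval start plus the deposited offset, and ties between TSSs went to the lower coordinate. Motifs were exact matches within 50 bp of the summit on both strands. Peaks overlapped when they shared 1 bp. On mm10, start sites came from RefSeq promoters of GRCm38.p6, matched by symbol or by an unambiguous synonym on the same chromosome (16587 of 22225 genes, 74.6%), a share under 80%, with 81.7% of member genes matched. The motif tests were tested on simulated sequence.

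Tests were two-sided Fisher's exact tests between classes of peaks or genes and exact McNemar tests within peaks, adjusted over 27 motifs by the Benjamini-Hochberg method with a threshold of 0.05. Replicates were not tested against each other, since there is a single group of 2 samples. The members, gene lists and motifs were chosen with earlier results of these data known. The flank test for motifs other than the MEF2 consensus, the search with 1 mismatch, and the descriptions by GC bin, signal group, motif carrier, annotation, neighbouring peak and divergent start were added after seeing the data. Genes named are those nearest to the 20 strongest members, to the 8 strongest with the MEF2 consensus and to the 2 strongest with an ETS, NRF1, CRE, NF-Y or SRF motif, up to 3 with the strongest peak per list, the unbound genes of a list that had at most 3 of them, and peaks next to each threshold.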

Additional observations from a re-analysis of the deposited data

How the results depend on the processing

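Of 56 alternatives over 9 results, 35 left the result as it was and 21 moved it; none reversed a direction, but the count of motifs that differed from low-GC promoter peaks depended on the setting. The share of mm9 peaks at high-GC promoters was 18.9% with a GC threshold of 50%, 8.49% with 60%, 12.8% within 500 bp, 16.9% within 2 kb, 9.77% in the stronger 50% of peaks, 17.3% with GC taken over 500 bp in all around the TSS and 13.1% with the outermost TSS of each gene. The share of summits downstream of the TSS was 32.1% and 27.8% with the 50% and 60% GC thresholds, 33.5% within 2 kb and 23.2% in the stronger 50%. The count of differing motifs was 13 as reported, 5 with the 60% GC threshold, 4 with windows of 25 bp to either side and 6 in the stronger 50%, and the cause was not tested. The median percentile was 31.4 in the stronger 50%. Leaving out each replicate gave a median percentile of 44.0 to 47.7, but these values come from the mm10 list of the remaining replicate, so the build, the kind of list and the assignment of GC class by gene symbol changed as well, and the move cannot be put down to a replicate. The mm10 optimal set gave 39.4. Leaving out each replicate gave 9.16% to 10.5% for the mm10 share, also from single-replicate lists. The mm10 share was 8.04% in the stronger 50% of the optimal set, and 14.3% and 5.66% with the 50% and 60% GC thresholds. The gene comparison, the MEF2 comparisons with distal peaks and with the flank and the motif count against distal peaks kept their direction and call in every alternative run. The difference between gene classes ranged from 3.69 to 16.7 percentage points. The ratio of the MEF2 share in members to that in distal peaks ranged from 0.286 with the MEF2 core to 0.562 in the stronger 50% of mm9 peaks. No paired analysis was possible because the samples form 1 group. The unknown read depth limits every share, and no floor can be given for promoters without a listed peak.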
